A study of Saccharomyces cerevisiae with 6 samples.

Results

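The PAU, DAN and TIR genes of budding yeast (Saccharomyces cerevisiae) encode mannoproteins of the cell wall, and their RNA was compared between cells with wild-type histone H3 and cells with a mutant H3. Members were the probe sets whose annotation in the platform table lists PAU, DAN or TIR genes and no other gene. There were 28 of them among the 9335 probe sets of the table. A single gene was listed for 16, and several PAU genes were listed for the other 12, here called shared probe sets. The 28 probe sets cover all 30 genes of the family in the gene table of assembly R64, which are 24 PAU, 2 DAN and 4 TIR genes. Of these genes, 14 were read by shared probe sets alone. The genes once called DAN2 and DAN3 carry the names PAU23 and PAU24 in that table.

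There were 6 Affymetrix arrays, 3 from a strain labelled wild type and 3 from a strain whose H3 carries arginine where lysines 4, 36 and 79 would stand (H3 K4,36,79R). Both strains grew in galactose with selection and then spent 6 h in glucose with selection before harvest. Per the series design the shift represses wild-type H3, so that the mutant H3 is left as the cell's sole H3. The design speaks of replicate cultures. The labels do not state the strain background, the plasmids, the mating type or the aeration of the cultures, and any difference in these between the strains cannot be told apart from the replaced lysines.

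These mannoproteins are known as anaerobic genes. In air, haem made with oxygen sustains the repressor Rox1, which acts with Mot3 and the corepressor Tup1-Cyc8 to hold many of them down. When oxygen, haem or sterol runs short, repression ends and the activator Upc2 turns on the DAN, TIR and many PAU genes, while the aerobic wall proteins Cwp1 and Cwp2 give way to them. Most PAU genes lie close to chromosome ends, where methylation of the H3 lysines replaced here is known to bear on gene silencing, and the question asked was whether their RNA differs when those lysines cannot be methylated.

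Copies of the PAU genes are nearly alike, which limits what an array can resolve. By the manufacturer's naming, a probe set with the suffix _f_at reads a family of similar sequences and one with _s_at reads sequences shared by several transcripts. Only the 6 DAN and TIR probe sets had neither suffix. All 10 PAU probe sets with a single listed gene were of the family kind, so cross-hybridisation between copies is possible in each of them. PAU9 was listed on 7 shared probe sets, and PAU1, PAU8, PAU10, PAU11, PAU12, PAU13 and PAU14 on 5 each. The shared probe sets therefore overlap in what they read and are not separate measurements of the family.

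By systematic name, 19 of the 30 genes, all of them PAU genes, were among the last 10 reading frames of a chromosome arm, and 13 were among the last 3. PAU8, PAU16 and PAU19 were the outermost reading frames of their arms. The DAN pair stood next to each other at ranks 11 and 12 from the end, and PAU2, PAU5, PAU7, PAU17, PAU23 and the 4 TIR genes lay farther in as well. The PAU reading frames were 129 to 495 bases long in the gene table, against 765 (TIR1), 756 (TIR2), 810 (TIR3), 1464 (TIR4), 897 (DAN1) and 3486 (DAN4) bases.

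Values below are scaled signals, in arbitrary units, after each array was brought to the same trimmed mean of 500. Differences are mutant minus wild type on the scale log2(signal + 16), from limma fitted to the 6808 probe sets with a mean signal of at least 50, and a call is an adjusted p under 0.05 over all of these. All 28 members passed that minimum, with mean signals over the 6 arrays from 63.6 to 2318. In bulk RNA a lower level may reflect fewer expressing cells or less RNA per cell, which cannot be told apart.

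The main result was that most of the family showed no called difference, which does not exclude small changes. On simulated data, 34.3% of changes of 0.5 on the log2 scale were recovered. TIR3 was the only member called, and it was lower in the mutant. One lower call in 28 members is 3.57%, beside 1.35% of all probe sets tested, and no member was called higher, beside 0.896% of all, with PAU17 the one member higher at an unadjusted p under 0.05. Among the members, 20 had a lower and 8 a higher mean in the mutant with equal trimmed means, while the split was 21 and 7 with quantile normalization and 27 and 1 with the intensities as deposited. The median difference of the members was -0.16, against 0.018 for all probe sets tested. The deposited intensities of the mutant arrays are multiplied by a factor under 1 whose basis is not given. On that scale the corresponding medians were -0.41 and -0.22, and 3 members were called lower (TIR3, TIR1 and PAU13), beside 5.57% of all probe sets, and 0 higher, beside 0.464%.

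**Figure D1:**
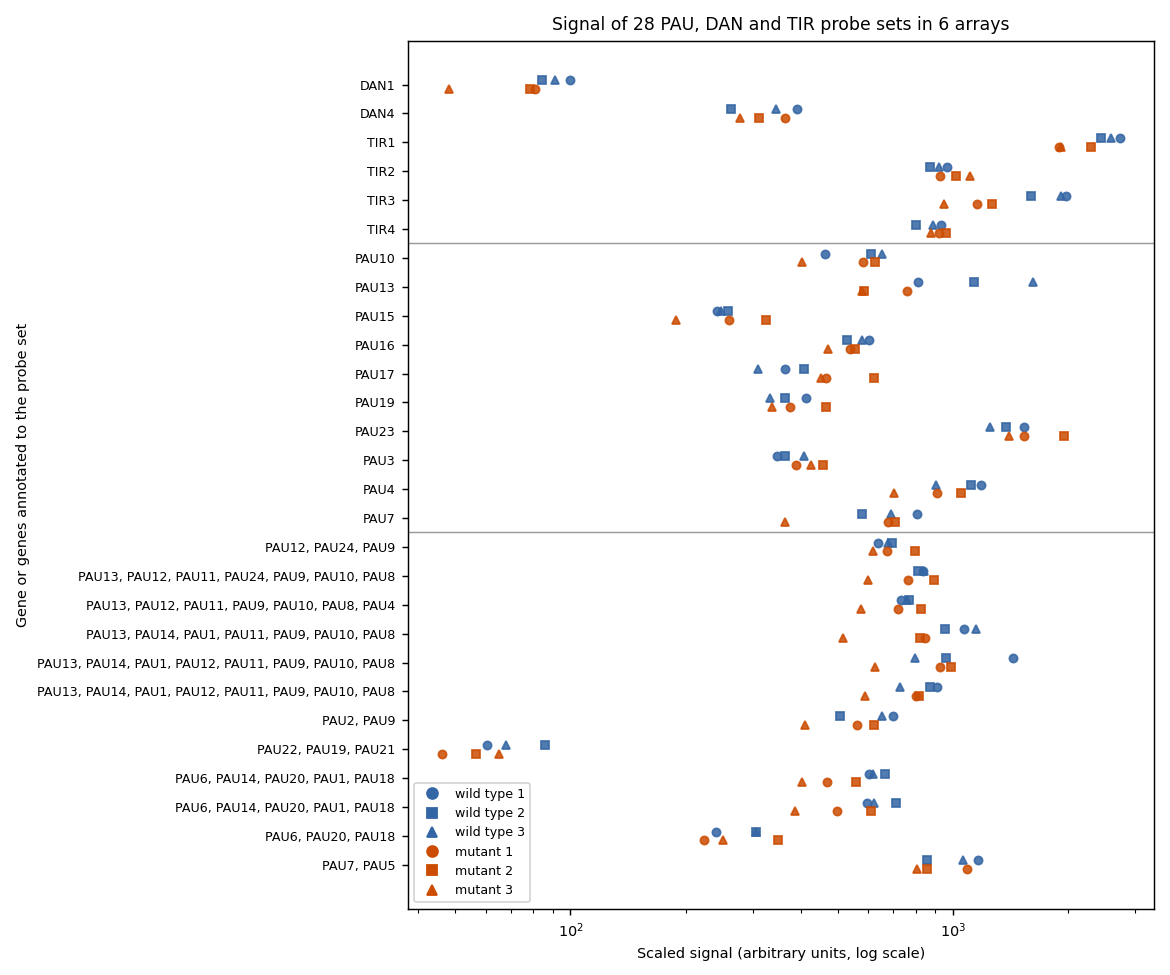
Scaled signal (log axis, arbitrary units) of the 28 PAU, DAN and TIR probe sets in each of 3 wild-type (blue) and 3 mutant (orange) arrays, with the marker shape giving the replicate and lines parting DAN and TIR, single-gene PAU and shared PAU probe sets. The groups are apart in 7 rows, among them TIR3 and TIR1, and mutant replicate 3 (orange triangle) is the lowest point in 18 of the 28.

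Mutant and wild-type values were fully apart in 7 of the 28 members, beside 25.8% of all probe sets tested. The mutant was lower in 6 of them, which is 21.4%, beside 11.5% of all probe sets tested, and higher in 1, beside 14.3% of all. An unadjusted p under 0.05 was found for 6 members (21.4%), beside 19.6% of all probe sets tested, so that this share was near the background.

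**Figure D2:**
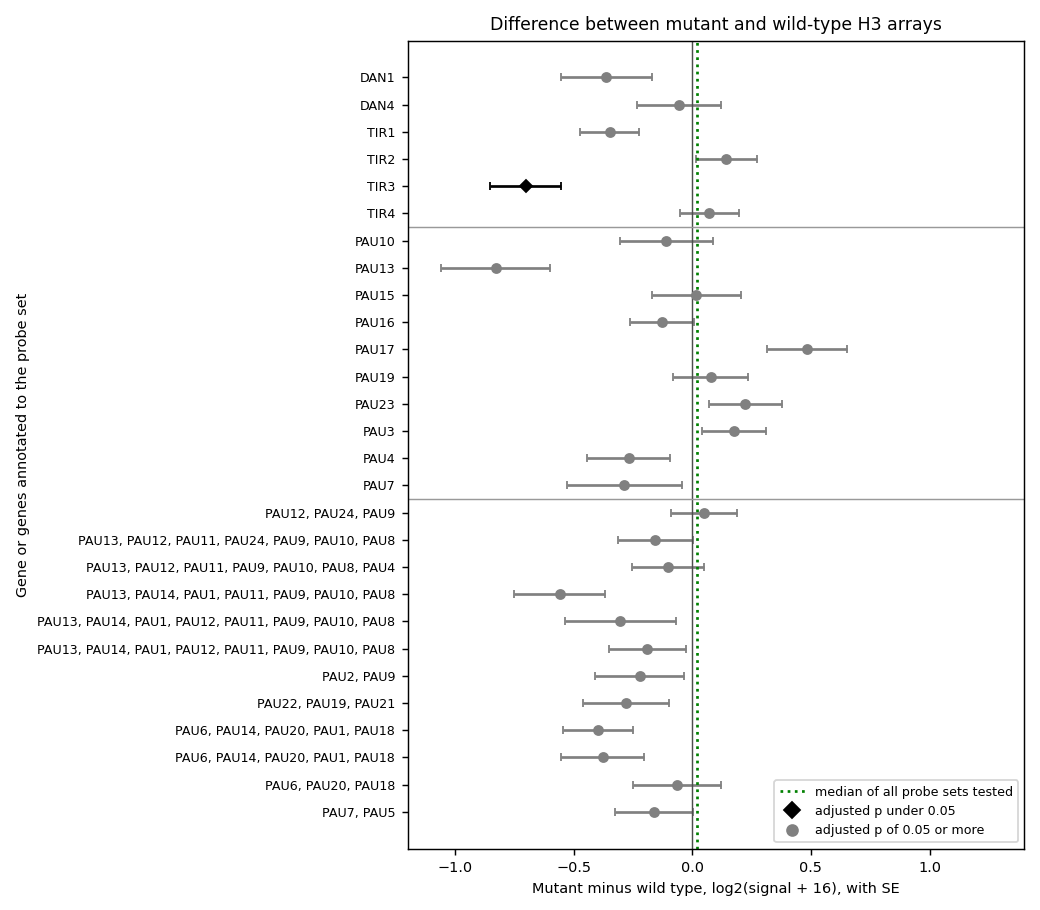
Difference between mutant and wild type on the log2(signal + 16) scale for each of the 28 probe sets, as limma estimate (point) with its standard error (bar); the black diamond is the one call. TIR3 stands at -0.70, PAU13 at -0.83 with a wider bar, and PAU17 at 0.48 is the farthest on the higher side.

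The TIR genes code for mannoproteins anchored in the wall through glycosylphosphatidylinositol, and TIR1, TIR3 and TIR4 are known to be needed for growth without oxygen. TIR3 (YIL011W, probe set 4114_at) had scaled signals of 1975, 1606 and 1917 in the wild-type arrays and 1155, 1267 and 947 in the mutant arrays. Every mutant value lay below every wild-type value. The means were 1833 ± 199 and 1123 ± 163 (SD, n = 3 each), so the mutant had 61.3% of the wild-type mean, and the log2 level of TIR3 fell by 0.70 (SE 0.15, limma adjusted p = 0.045). The call stood close to the threshold. It was kept without mutant replicate 2, on the deposited scale and with quantile normalization, and was lost without any of the other 5 arrays, at limma adjusted p from 0.073 (without wild-type replicate 2) to 0.177 (without wild-type replicate 1), as well as with median scaling (0.053), with no intensity trend (0.057) and with no signal filter (0.066).

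TIR1 (YER011W, 5711_at), which is also known as a cold-shock gene, gave 2748, 2441 and 2598 in the wild-type arrays and 1902, 2295 and 1924 in the mutant. These groups did not overlap either. It differed by -0.35 (SE 0.12, limma adjusted p = 0.166), which is no call, while on the deposited scale it was -0.60 with an adjusted p of 0.044. The neighbours TIR2 and TIR4 showed no such gap. TIR2 (YOR010C, 8527_at), another cold-shock gene, gave 968, 872 and 923 in the wild-type arrays and 926, 1023 and 1112 in the mutant, and differed by 0.14 (SE 0.13, limma adjusted p = 0.573). For TIR4 (YOR009W, 8526_at) the values were 931, 800.4 and 889 against 918, 959 and 876, a difference of 0.072 (SE 0.12, limma adjusted p = 0.790). Both differences turned negative on the deposited scale, to -0.11 for TIR2 and -0.18 for TIR4.

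Since the scaling moves every gene of an array alike, the TIR genes were also compared through ratios within each array, which the scaling cannot change. This check was chosen after the values had been seen, over all 6 pairs of TIR genes. The log2 ratio of TIR3 to TIR2 was 1.03, 0.88 and 1.05 in the wild-type arrays and 0.32, 0.31 and -0.23 in the mutant. TIR3 thus lost ground to TIR2 by 0.86 on the log2 scale, a 1.81-fold change, with no overlap between the groups. The ratio of TIR3 to TIR4 changed by -0.78 and that of TIR1 to TIR2 by -0.50, from 1.51, 1.48 and 1.49 to 1.04, 1.17 and 0.79. The ratio of TIR1 to TIR4 changed by -0.42 and that of TIR3 to TIR1 by -0.36, each without overlap, while that of TIR2 to TIR4 differed by 0.072. Exact permutation over the 3 mutant and 3 wild-type arrays (two-sided) gave p = 0.1 for each of the 5 ratios that did not overlap, the smallest such a design allows (0.12 after Benjamini-Hochberg adjustment over the 6), and p = 0.8 for TIR2 to TIR4. The 6 ratios reuse the same TIR signals, so they repeat one another and are not separate tests. The p of 0.1 by exact permutation follows from the lack of overlap alone. How often ratios between other probe sets part in this way was not counted. TIR3 and TIR1 were lower relative to TIR2 and TIR4 in each mutant array than in any wild-type array.

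**Figure D3:**
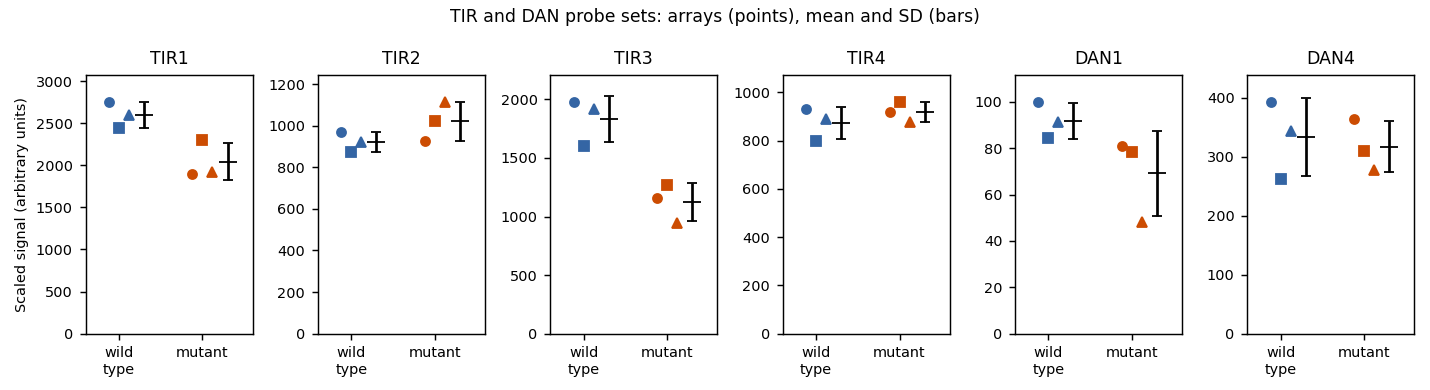
Scaled signal (arbitrary units, axes from 0) of the 4 TIR and 2 DAN probe sets in the wild-type (blue) and mutant (orange) arrays, with replicates 1, 2 and 3 as circle, square and triangle and the mean and SD of 3 arrays as black bars. TIR1, TIR3 and DAN1 show no overlap between the groups, while TIR2, TIR4 and DAN4 overlap.

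DAN1 (YJR150C, 10852_at), a wall mannoprotein gene and a model for repression by oxygen, was dim, at 99.8, 84.4 and 91.3 in the wild-type arrays and 80.8, 78.4 and 48.1 in the mutant. The groups did not overlap, but mutant replicates 1 and 2 lay just under the lowest wild-type array. The difference was -0.36 (SE 0.19, limma adjusted p = 0.330). Its neighbour DAN4 (YJR151C, 10853_at) gave 392, 262 and 344 against 364, 310.5 and 277, with overlapping groups, and differed by -0.057 (SE 0.18, limma adjusted p = 0.891).

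The PAU genes (seripauperins) form one of the largest gene families of yeast, and for most of its members no separate function is known. Of the 10 single-gene PAU probe sets, 5 had a lower and 5 a higher mean in the mutant, and none was called. An unadjusted limma p under 0.05 was found for 2 (PAU13 and PAU17), which is 20%, beside 19.6% of all probe sets tested. The split into lower and higher means turned on the scaling, since 4 of the 5 higher ones (PAU3, PAU15, PAU19 and PAU23) were lower on the deposited scale, and PAU15 was also lower with quantile normalization.

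PAU13 (YHL046C, 4563_f_at) gave 811, 1136 and 1623 in the wild-type arrays and 759, 587 and 580 in the mutant. All mutant values were lower, but the wild-type arrays themselves spread widely, with a mean of 1190.0 ± 409 against 642 ± 102 (SD, n = 3). Its difference of -0.83 (SE 0.23) missed the threshold at a limma adjusted p of 0.098, and on the deposited scale it was -1.08 with an adjusted p of 0.044. PAU13 was also listed on 5 shared probe sets, whose differences ran from -0.56 to -0.10 with no call.

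PAU17 (YLL025W, 10361_f_at), which lies away from the chromosome end, went the other way. Its signals were 365, 408 and 310.1 in the wild-type arrays and 466, 623 and 451 in the mutant, with every mutant array above every wild-type array. The difference was 0.48 (SE 0.17, limma adjusted p = 0.159), and it was 0.24 on the deposited scale. PAU23 (YLR037C, 10289_f_at), also far from the end of its arm, gave 1534, 1378 and 1250.3 against 1539, 1958 and 1404, a difference of 0.22 (limma adjusted p = 0.454), with mutant replicates 1 and 2 above the wild type. PAU3 (YCR104W, 6798_f_at) gave 346, 365 and 409 against 388, 458 and 426, a difference of 0.18 (limma adjusted p = 0.509).

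The remaining single-gene PAU probe sets overlapped between the groups. PAU4 (YLR461W, 9865_f_at) gave 1183, 1114 and 905 in the wild-type arrays and 911, 1054 and 703 in the mutant. PAU7 (YAR020C, 11287_f_at) gave 808, 580.0 and 689 against 679, 706 and 363. In both, mutant replicate 3 alone lay under the wild-type range, and the differences were -0.27 and -0.29 (limma adjusted p = 0.426 and 0.550). PAU10 (YDR542W, 3403_f_at) gave 464, 612 and 654 against 581, 627 and 403, with mutant replicate 3 again the lowest. PAU16 (YKL224C, 10789_f_at) gave 605, 528 and 580.3 against 538, 556 and 471. Their differences were -0.11 and -0.13 (limma adjusted p = 0.797 and 0.635), within the spread of the arrays. PAU15 (YIR041W, 4076_f_at) gave 242, 259 and 247 against 260.03, 325 and 189, so that the mutant arrays spread to both sides of the narrow wild-type range (SD 68.4 against 8.74). PAU19 (YMR325W, 9290_f_at) gave 412, 365 and 332 against 375, 466 and 338, and these 2 genes differed by 0.017 and 0.078 (limma adjusted p = 0.969 and 0.826).

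In a grouping made after the values were seen, the 5 single-gene PAU probe sets whose gene is also listed on a shared probe set (PAU4, PAU7, PAU10, PAU13 and PAU19) had a median difference of -0.27. The 5 whose gene is on none (PAU3, PAU15, PAU16, PAU17 and PAU23) had a median of 0.18. Without mutant replicate 3 the medians were 0.013 and 0.21. These medians are a description and were not tested.

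Of the 12 shared PAU probe sets, 11 had a lower mean in the mutant, and all 12 had one on the deposited scale. Their median difference was -0.21, beside 0.018 for all probe sets tested. None was called by limma, with 2 at an unadjusted p under 0.05 (16.7%, beside 19.6% of all probe sets tested). The share with a lower mean, 91.7%, stands beside 47.5% of all probe sets tested, but these probe sets list the same genes many times over and so repeat one another.

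The largest difference among them was at the probe set of PAU13, PAU14, PAU1, PAU11, PAU9, PAU10 and PAU8 (3907_f_at). It gave 1073, 953 and 1149 in the wild-type arrays and 848, 822 and 515 in the mutant, without overlap, and differed by -0.56 (SE 0.19, limma adjusted p = 0.157). A pair of probe sets listed PAU6, PAU14, PAU20, PAU1 and PAU18. One (8786_f_at) gave 604, 664 and 618 against 468, 558 and 404, without overlap, and differed by -0.40 (SE 0.15, limma adjusted p = 0.182). The other (10412_f_at) gave 598, 712 and 621 against 499, 610 and 387, with mutant replicate 2 inside the wild-type range, and differed by -0.38 (SE 0.17, limma adjusted p = 0.273). This pair therefore gave nearly the same answer. A further probe set, of PAU6, PAU20 and PAU18 (8720_f_at), differed by -0.065 (limma adjusted p = 0.879).

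The pair of probe sets that listed the same 8 genes (PAU13, PAU14, PAU1, PAU12, PAU11, PAU9, PAU10 and PAU8) differed by -0.30 and -0.19. The brighter (11249_f_at) gave 1434, 962 and 798 against 929, 991 and 628, with wild-type replicate 1 well above all other arrays. Its log2 ratio to its partner was 0.66 in that array and 0.14 and 0.13 in the other wild-type arrays. The partner was also highest in that array, at 910.2, by a smaller margin. The probe set of PAU13, PAU12, PAU11, PAU24, PAU9, PAU10 and PAU8 (4723_f_at) gave 838, 811 and 843 against 764, 893 and 602, a difference of -0.16. That of PAU7 and PAU5 (5410_f_at), the latter known for protection against the K28 killer toxin, gave 1164, 856 and 1065 against 1087, 857 and 807, also a difference of -0.16.

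The dimmest member, of PAU22, PAU19 and PAU21 (8147_s_at), gave 60.6, 85.6 and 67.8 in the wild-type arrays and 46.03, 56.6 and 65.02 in the mutant, a difference of -0.28 (limma adjusted p = 0.426). Here mutant replicate 3 was the highest of the mutant arrays. The other 3 shared probe sets differed by -0.22 to 0.050 (limma adjusted p from 0.548 to 0.877). The one with a higher mean, of PAU12, PAU24 and PAU9 (7074_f_at), was lower on the deposited scale (-0.20).

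The lower median of the family came in large part from 1 array. Against the wild-type mean, the median of the 28 members was -0.074 in mutant replicate 1, 0.0058 in mutant replicate 2 and -0.40 in mutant replicate 3, while the medians over all probe sets tested were 0.0029, 0.030 and 0.055. Mutant replicate 3 was the lowest of the 6 arrays for 18 members (64.3%), beside 19.8% of all probe sets tested, and for 10 of the 12 shared ones. It lay below every wild-type array for 19 members (67.9%, beside 31.4% of all probe sets tested). Mutant replicate 1 did so for 11 (39.3%, beside 31.3% of all) and mutant replicate 2 for 7 (25%, beside 32.9% of all). Without mutant replicate 3 the median difference of the members was -0.029, that of the single-gene probe sets 0.055 and that of the shared ones -0.065, and 16 members had a lower and 12 a higher mean. The lower means were those of 10 of the 12 shared and 6 of the 16 single-gene probe sets. Larger differences remained without that array, at -0.59 for TIR3, -0.76 for PAU13, -0.31 for TIR1 and 0.57 for PAU17.

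**Figure D4:**
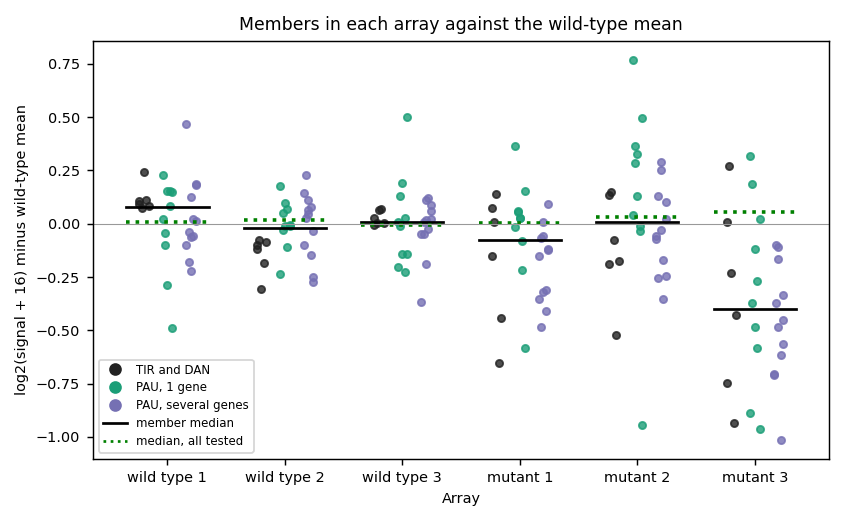
Each member's log2(signal + 16) minus its wild-type mean, by array, for TIR and DAN (black), single-gene PAU (green) and shared PAU (purple) probe sets; black lines are the member medians and dotted green lines the medians of all probe sets tested. In mutant replicate 3 the member median is -0.40 while that of all probe sets is 0.055; in mutant replicate 2 both are close to 0.

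Summed over the 28 members, the signal was 22876, 20998 and 22049 in the wild-type arrays and 19461, 21491 and 16367 in the mutant. The mutant mean was 86.9% of the wild-type mean, with mutant replicate 2 inside the wild-type range, and exact permutation over the 3 and 3 arrays (two-sided) gave p = 0.2, where 0.1 is the smallest possible. The sum counts sequences read by several probe sets more than once.

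Measures that could move with the family were set beside it. Probe sets of the family kind outside the members, 459 in number, had a median difference of 0.011, and 10 of them (2.18%) were called lower. Against the wild-type mean, their medians were -0.094, 0.10 and 0.078 in wild-type replicates 1, 2 and 3. In mutant replicates 1, 2 and 3 they were 0.10, 0.064 and -0.093, so wild-type replicate 1 was as low as mutant replicate 3. Genes with reading frames of up to 500 bases outside the family, 695 in number, had a median of -0.013, against 0.028 for longer ones. The part of array quality in the low values of mutant replicate 3 was not tested.

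The H3 genes HHT1 and HHT2 were examined as a check of the labels. One probe set annotated to the pair fell by 1.57 in log2 units (limma adjusted p = 0.0013), and a brighter one differed by -0.11 (limma adjusted p = 0.648). Another lay below the signal minimum and was not tested, with mean signals of 8.88 in the wild-type and 18.6 in the mutant arrays. The labels do not say which bases each reads.

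The regulators of the anaerobic genes showed no called difference. All 14 of the list were tested, with a median difference of 0.0036, and 0 were called higher and 0 lower by limma. An unadjusted limma p under 0.05 was found for 1, beside 19.6% of all probe sets tested. The smallest adjusted p belonged to ECM22, a sterol regulator related to UPC2, at 175, 137 and 170 in the wild-type arrays and 283, 162 and 372 in the mutant (difference 0.64, limma adjusted p = 0.207), followed by TUP1, of the corepressor (-0.31, limma adjusted p = 0.367). Without mutant replicate 2, ECM22 was called higher (0.95, limma adjusted p = 0.024). The repressor genes ROX1 and MOT3 differed by 0.048 and -0.31, and the activator gene UPC2, near the signal minimum, by -0.11, as further members of the same list named for their roles.

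Other anaerobic and hypoxic genes showed no called difference either. Of the 22 listed, 20 were tested, 0 were called in either direction by limma, and their median difference was 0.012. An unadjusted limma p under 0.05 was found for 5 of the 20, beside 19.6% of all probe sets tested. RIB4, of riboflavin synthesis, had the smallest adjusted p, with 1563, 1180 and 1442 against 903, 646 and 1146 (difference -0.65, limma adjusted p = 0.128), and the flocculin gene FLO11 gave 367, 351 and 349 against 629, 524 and 408 (difference 0.51, limma adjusted p = 0.143). Values were fully apart in 3 lower and 4 higher genes of this list, beside 11.5% lower and 14.3% higher of all probe sets tested. On the deposited scale RIB4 (-0.90) and YOL014W (-0.67) were called lower (limma adjusted p = 0.033 for both). RIB4 was also called with the replicate block (limma adjusted p = 0.043), and CYC7 was called higher without mutant replicate 2 (0.58, limma adjusted p = 0.046). HEM13, of haem synthesis, and ANB1, a translation factor gene expressed without oxygen, differed by 0.083 and -0.17. AUS1, a sterol importer and the neighbour of TIR2, differed by 0.24 (limma adjusted p = 0.453).

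The genes of aerobic cells were also not called by limma, 0 of 9 tested, and had a median of -0.0069. An unadjusted limma p under 0.05 was found for 1 of the 9, beside 19.6% of all probe sets tested. CWP1, the wall protein that the anaerobic mannoproteins replace, gave 5693, 4286 and 5121 in the wild-type arrays and 3627, 3494 and 3469 in the mutant. All mutant values were lower, by 0.50 on the log2 scale in the mean (SE 0.13, limma adjusted p = 0.076), short of a call, while on the deposited scale CWP1 was called lower (-0.75, limma adjusted p = 0.027). CTT1, the cytosolic catalase, differed by -0.37 (limma adjusted p = 0.277), and CWP2 by -0.12 (limma adjusted p = 0.532).

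Among 20 other wall protein genes, 1 was called lower and 0 higher, beside 1.35% lower and 0.896% higher of all probe sets tested. Their median was 0.032. The called gene was UTR2, a chitin transglycosylase, which gave 2866, 2453 and 2946 in the wild-type arrays and 1807, 1486 and 1685 in the mutant and fell by 0.73 (SE 0.13, limma adjusted p = 0.025). No gene of this list was called lower without any 1 of 5 arrays, the exception being mutant replicate 2. On the deposited scale SPI1 was called lower beside UTR2 (-0.83, limma adjusted p = 0.025), and without mutant replicate 3 FIT3 was called higher (0.74, limma adjusted p = 0.031). TIP1, a relative of the TIR genes, gave 4853, 4235 and 4727 against 5369, 6626 and 5342, a difference of 0.32 in the opposite direction to TIR3 (limma adjusted p = 0.190). The 10 sterol genes under Upc2 had a median of -0.14, with 9 of lower mean and 0 called by limma, led by NCP1 (-0.40, limma adjusted p = 0.147) and ERG1 (-0.31, limma adjusted p = 0.198). An unadjusted limma p under 0.05 was found for 2 of the 10, beside 19.6% of all probe sets tested.

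**Figure D5:**
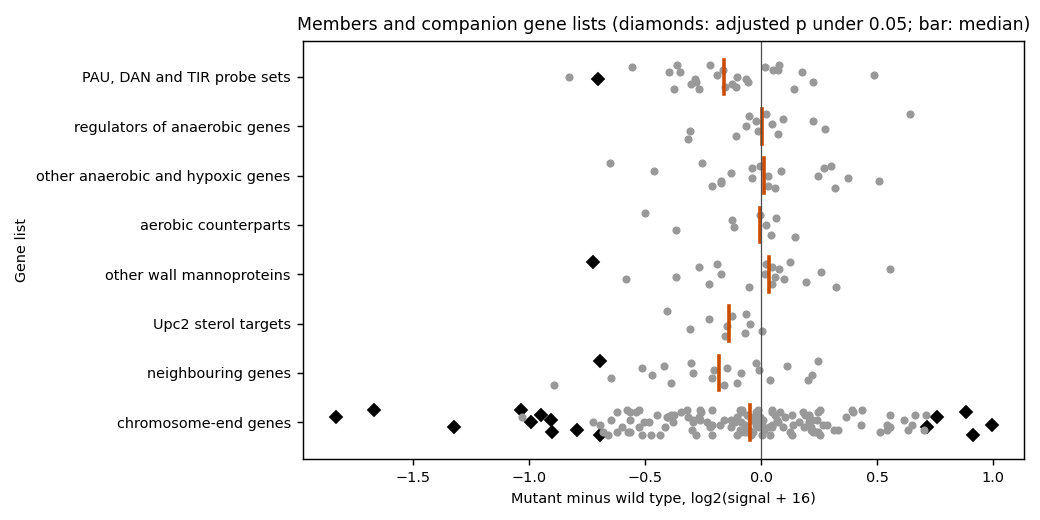
Difference between mutant and wild type (log2(signal + 16)) of the 28 members and of each tested gene in 7 companion lists; diamonds are calls and orange bars the list medians. Regulators, anaerobic genes and aerobic genes centre near 0, the neighbouring genes centre at -0.18, and calls gather in the list of genes at chromosome ends. The neighbouring and chromosome-end lists share genes, among them COS6, which is a diamond in both.

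The genes next to the family on the chromosome were examined to set the members beside genes in the same place. Of 53 nearest genes on either side, 22 were tested, with a median of -0.18. A lower mean in the mutant was found for 17 (77.3%, beside 47.5% of all probe sets tested). COS6, a subtelomeric membrane protein gene beside PAU12, was the only one called (4.5%, beside 1.35% of all probe sets called lower). It gave 2431, 1846 and 2499 in the wild-type arrays and 1296, 1325 and 1512 in the mutant and fell by 0.70 (SE 0.15, limma adjusted p = 0.045). Values were fully apart in 8 of the 22, all with the mutant lower (36.4%, beside 11.5% of all probe sets tested), but no other was called. The neighbours' median stayed at -0.17 without mutant replicate 3, where that of the members was -0.029. The COS6 call was lost with no signal filter, with no intensity trend and without wild-type replicate 1 or 3 or mutant replicate 1 or 3, each of which left 0 neighbours called. On the deposited scale 5 neighbours were called lower (COS6, YDR541C, ARN2, YLR036C and YLR460C). On that scale 5.57% of all probe sets were called lower, and the median of all was -0.22.

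The neighbours of TIR3, PAU13, TIR1, PAU17 and PAU23 are given next, a choice made after the values were seen. DOT5, a peroxidase gene beside TIR3, gave a mean of 801 ± 94.8 in the wild-type arrays and 575 ± 86.3 in the mutant (SD, n = 3), without overlap (difference -0.47, limma adjusted p = 0.145). ARN2, a siderophore transporter gene beside PAU13, gave 191 ± 23.9 and 128 ± 4.37 (SD, n = 3), also without overlap (difference -0.52, limma adjusted p = 0.1004). Beside TIR1, YER010C gave 326, 373 and 378 against 313, 314 and 300.1, without overlap (difference -0.20, limma adjusted p = 0.425). YNCE0012W, read by a probe set of the family suffix, gave 724, 382 and 628 against 430.02, 287 and 203, with overlap (difference -0.89, limma adjusted p = 0.133), and was called with the replicate block (limma adjusted p = 0.041). SSA2, the chaperone gene beside PAU17, differed by -0.023 (limma adjusted p = 0.922). COX12 and YLR036C, on either side of PAU23, differed by 0.20 and -0.42 (limma adjusted p = 0.418 and 0.174).

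Of 148 tested genes outside the family among the last 10 reading frames of an arm, 5 were called higher and 10 lower (6.76% lower). Over all probe sets tested, 0.896% were called higher and 1.35% lower. Among the genes called lower were COS4, COS6, COS7, COS8 and COS10, which belong to the same gene family. COS4 and COS7 were read by probe sets of the family suffix, where cross-hybridisation between copies is possible. The COS calls may therefore not be separate from one another. On the deposited scale 3 were called higher and 25 lower, beside 0.464% higher and 5.57% lower of all probe sets. Leaving out 1 array gave 1 to 6 higher and 3 to 15 lower, beside 13 to 124 and 23 to 140 over all probe sets tested. The 4 with the smallest adjusted p were BNA6 (-1.67), AIF1 (-1.33), COS7 (-1.83) and SAM3 (0.91). Some neighbouring genes are in this list as well, and COS6 is counted as a call in both. The 7 single-gene members in that zone (PAU3, PAU4, PAU10, PAU13, PAU15, PAU16 and PAU19) had a median difference of -0.11 with 0 called at an adjusted p under 0.05 by limma and 1, PAU13, at an unadjusted p under 0.05 (14.3%, beside 19.6% of all probe sets tested). The 9 farther in had a median of -0.057, with TIR3 called. Without mutant replicate 3 these medians were 0.078 and 0.031, and the difference between them was not tested.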

How the data were processed

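The deposited intensities are MAS5 probe set signals on a linear scale, per the submitters' processing notes; the sources used here give neither version nor scaling target. The mutant arrays carried a further factor of 0.888, 0.869 and 0.767, read from the steps in which the authors' values are written. Control probe sets (60) were left out, arrays were brought to a common trimmed mean of 500 (2% trimmed at each end), 16 was added and log2 taken, and 6808 probe sets with a mean of at least 50 were tested with limma 3.58.1 in R 4.3.3 (lmFit, then eBayes with a trend on intensity) and Benjamini-Hochberg adjustment. The number of arrays limits the precision, with a median SE of 0.16 on the log2 scale. Detection calls were not used.

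On simulated data with 200 changed among 6808 probe sets for this comparison, 100% of changes of 2, 94.0% of changes of 1 and 34.3% of changes of 0.5 on the log2 scale were recovered, with 10 false calls among 162. Companion genes entered with their brightest single-gene probe set. Values in every array are given for single-gene members, the 4 brightest shared members and the 4 with the smallest p. From each companion list the called genes (up to 4, smallest adjusted p) or otherwise the 2 with the smallest adjusted p are named; MOT3, ROX1, UPC2, HEM13, ANB1, AUS1, CWP2, TIP1 and the neighbours DOT5, ARN2, SSA2, COX12, YLR036C, YER010C, YNCE0012W, YDR541C and YLR460C, with YOL014W, CYC7, FIT3 and SPI1, were named outside this rule, after their values were seen. The members and lists were chosen with earlier results of these data known. The files name no genome build, so no coordinates are given, and sequences were not used here.

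The labels give both groups replicate numbers 1 to 3, without saying what a number shares. Deviations of same-numbered arrays from their group means correlated at 0.13, 0.16 and 0.042, and those of differently numbered arrays at -0.13 to 0.048. Most arrays correlated best with their own number, so these values do not exclude pairs. As the labels state no pairing, the main fit did not use the numbers. A fit with a replicate block called 108 probe sets higher and 147 lower, against 61 and 92 in the main fit.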

Additional observations from a re-analysis of the deposited data

How the results depend on the processing

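Over the 28 members and all alternatives, 389 of 418 recomputed differences kept their direction and their side of the threshold, 19 turned sign, 2 gained and 8 lost a call, the last all of TIR3. With the intensities as deposited, 3 members were called lower (TIR3, TIR1 and PAU13; 5.57% of all probe sets tested), the medians were -0.41 for all members, -0.32 for single-gene and -0.45 for shared ones, and 31 probe sets in all were called higher and 372 lower. No member was called with median scaling, no signal filter or no intensity trend (0 each). With no signal filter 33 probe sets were called higher and 54 lower, and with the filter at 200, 57 were called lower. The replicate block called 108 higher and 147 lower in all and TIR3 alone among the members (1 call); its numbers are not known to pair the arrays, and 5 of 6 arrays correlated best with their own number.

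Leaving out 1 array gave 0 to 1 members called lower and 0 called higher, member medians from -0.26 (without mutant replicate 2) to -0.029 (without mutant replicate 3), single-gene medians from -0.17 to 0.055, shared medians from -0.29 to -0.065, a log2 ratio of summed signals from -0.29 to -0.10, and 13 to 124 probe sets called higher and 23 to 140 lower in all.

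Signs turned on the deposited scale for PAU23 (-0.026), PAU15 (-0.22), PAU3 (-0.067), PAU19 (-0.16), TIR4 (-0.18), TIR2 (-0.11) and the PAU12, PAU24 and PAU9 probe set (-0.20), and for PAU15 with quantile normalization (-0.021). With 1 array left out, differences of both signs were found for DAN4 (-0.21 to 0.065), PAU7 (-0.45 to 0.013), PAU10 (-0.25 to 0.078), PAU15 (-0.16 to 0.21), PAU19 (-0.047 to 0.18), the PAU12, PAU24 and PAU9 probe set (-0.051 to 0.13), the PAU6, PAU20 and PAU18 probe set (-0.24 to 0.062) and the probe set of PAU13, PAU12, PAU11, PAU9, PAU10, PAU8 and PAU4 (-0.22 to 0.031). None of these was called with all arrays; the cause was not tested.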
